A study of Mus musculus with 5 samples.

Results

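Genes of the machinery that fuses and divides mitochondria were followed in mouse embryonic stem cells given siRNA against Dhx30 or Tfam. They were chosen by name (Mfn1, Mfn2, Opa1, Dnm1l, Fis1, Mff, Mief1, Oma1, Yme1l1 and Mtfr1), and all 10 were found among the 12930 genes of the deposited table, where they appear as MFN1, MFN2, OPA1, DNM1L, FIS1, MFF, MIEF1, OMA1, YME1L1 and MTFR1, each with a value in every siRNA library. The study measured RNA in 5 libraries of OG2 cells, a line that carries a green fluorescent reporter of Pou5f1, with the strain labelled (CBA/CaJxC57BL/6J) with 129Sv/Jae. There were 2 siDhx30 libraries, 2 siTfam libraries and 1 negative control library (NC). All groups spent 24 h in N2B27 medium with LIF, PD0325901 and CHIR99021, were then transfected at 50 nM siRNA with DharmaFECT 1, and were moved at that point to bFGF, Activin A and knockout serum replacement for 36 h. The labels name no siRNA sequence and do not say whether replicates were separate cultures, so the p-values reflect variation among these libraries alone, and that variation may be technical.

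Mitochondria form a network that is remodelled by dynamin-family GTPases. Mitofusins join outer membranes, OPA1 joins inner membranes and holds cristae in shape, and DRP1, the product of Dnm1l, is recruited from the cytosol by outer membrane adaptors to constrict the organelle. The inner membrane proteases OMA1 and YME1L cut OPA1 and so set the balance of its long and short forms, OMA1 chiefly under stress. Dhx30 encodes an RNA helicase of mitochondrial RNA granules, and Tfam a factor for the transcription and packaging of mitochondrial DNA.

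The bases just upstream of the outermost RefSeq start of 4 members are shown as a description, and no ratio or test below rests on these bases. Opa1 and Fis1 were taken for the highest and the lowest mean ratio of the 10 genes over the siRNA libraries. Mfn1 and Mfn2 were taken as the mitofusin pair. The sequences are from RefSeq on GRCm38.p6, in the direction of transcription, and end before the gene in both RefSeq and GENCODE. Capitals mark matches, on either strand, to CGCATGCG, the core of the NRF1 element of many mitochondrial genes, or to CCGGAAG, an ETS-family core.
Opa1, chr16:29579084-29579333 (plus strand): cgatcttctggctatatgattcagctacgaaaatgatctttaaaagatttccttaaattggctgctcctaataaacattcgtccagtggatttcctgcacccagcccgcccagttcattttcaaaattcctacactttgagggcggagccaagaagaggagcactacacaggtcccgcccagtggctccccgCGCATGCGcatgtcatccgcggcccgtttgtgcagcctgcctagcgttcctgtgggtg
Fis1, chr5:136953025-136953274 (plus strand): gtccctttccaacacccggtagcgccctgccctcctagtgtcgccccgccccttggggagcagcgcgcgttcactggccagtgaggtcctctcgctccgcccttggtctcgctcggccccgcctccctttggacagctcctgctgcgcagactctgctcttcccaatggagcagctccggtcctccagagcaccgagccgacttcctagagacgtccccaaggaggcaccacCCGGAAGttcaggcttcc
Mfn1, chr3:32529232-32529464 (plus strand): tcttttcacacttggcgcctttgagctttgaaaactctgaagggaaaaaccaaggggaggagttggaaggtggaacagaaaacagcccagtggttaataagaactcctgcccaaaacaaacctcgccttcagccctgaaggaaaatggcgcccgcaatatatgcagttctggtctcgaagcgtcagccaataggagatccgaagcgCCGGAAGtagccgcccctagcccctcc
Mfn2, chr4:147904910-147905159 (minus strand): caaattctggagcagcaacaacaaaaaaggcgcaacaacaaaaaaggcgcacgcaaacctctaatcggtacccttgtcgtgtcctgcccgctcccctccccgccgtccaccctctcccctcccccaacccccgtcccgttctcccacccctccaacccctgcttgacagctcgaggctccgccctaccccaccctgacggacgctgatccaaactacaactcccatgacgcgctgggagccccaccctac
Opa1 held the NRF1 letters from position -58 of the RefSeq start, Fis1 and Mfn1 the ETS core from -18 and -44, and the Mfn2 window neither. The Mfn2 window stops at 147904910, whereas the GENCODE gene starts at 147904704 on the minus strand. The bases between were not searched, so the Mfn2 window is not placed like that of Mfn1. Matches were counted over the full RefSeq window of 250 bases, which can run into the GENCODE gene. Among the 9 members with such a window, the ETS core lay in 4 (Mfn1, Fis1, Mief1 and Yme1l1). It lay in 7.07% of 27025 promoters of the same length, 1 per gene. In Yme1l1 the matches lay in the last 136 bases, inside the GENCODE gene. In Mief1 the last 62 bases are inside it, and the match from -65 crosses its start. The motifs were chosen with the windows already seen, so no enrichment is read from these shares or those that follow. The NRF1 letters lay in 1 of the 9, against 1.58% of promoters. The cyclic AMP element TGACGTCA, the ATF4 composite element TGATGNAA and the ERR element TNAAGGTCA lay in 0 of the 9, and in 1.6%, 3.53% and 1.13% of promoters. No matches overlapped in these windows, and a match is a description of letters and not a binding site.

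The values are log2 ratios of each siRNA library to a reference read here as the NC library. The table states neither the reference nor the direction of its ratios. All 1574 deposited values of the 842 genes that lack a value in some library were negative, the pattern left by a minimum on abundance in either library when NC is the numerator. The signs were therefore turned to siRNA over NC, and every direction here rests on that reading. With the deposited sign kept, each direction against NC and between the siRNAs would be the opposite, at the same size. Dhx30 then had ratios of -0.40 and -0.20 after siDhx30 (limma adjusted p = 0.998) and Tfam had -0.28 and -0.02 after siTfam (limma adjusted p = 0.987), so neither knockdown was established at the RNA level. Ratios hold no depth or level, so no counting interval is given, and how abundant any member is remains unknown. The markers Pou5f1, Sox2 and Nanog were sought but did not have a ratio in every siRNA library, so the labelled cell type could not be checked. Of 15 listed pluripotency genes, 5 were measured in every siRNA library (Esrrb, Tfcp2l1, Sall4, Dnmt3b and Otx2), with library medians from 0.021 to 0.060. The medians were -0.66 to -0.065 for 6 of 10 primitive endoderm genes and -0.11 to 0.36 for 5 of 9 fibroblast genes. A median can hide genes that move in opposite directions, so no cell state is read from these. The part of these markers in the values below was not tested.

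The fusion and fission genes lay close to their control level. Of 40 member values, 38 lay within 0.25 of 0 on the log2 scale, against 53.1% of values over the 12088 genes with all 4 ratios. Of the 10 genes, 8 were within that band in every library, against 22.8% of all genes. The exceptions were Mfn2 in siDhx30 replicate 1 (0.41) and Opa1 in siDhx30 replicate 2 (0.30). The replicate gap was also small, with a median of 0.12 between the siDhx30 libraries and 0.086 between the siTfam libraries, beside 0.23 and 0.24 over all genes. Low counts widen both kinds of spread, and the members could not be compared with genes of like abundance. In bulk RNA, fewer cells of a type and less RNA per cell cannot be told apart.

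**Figure D1:**
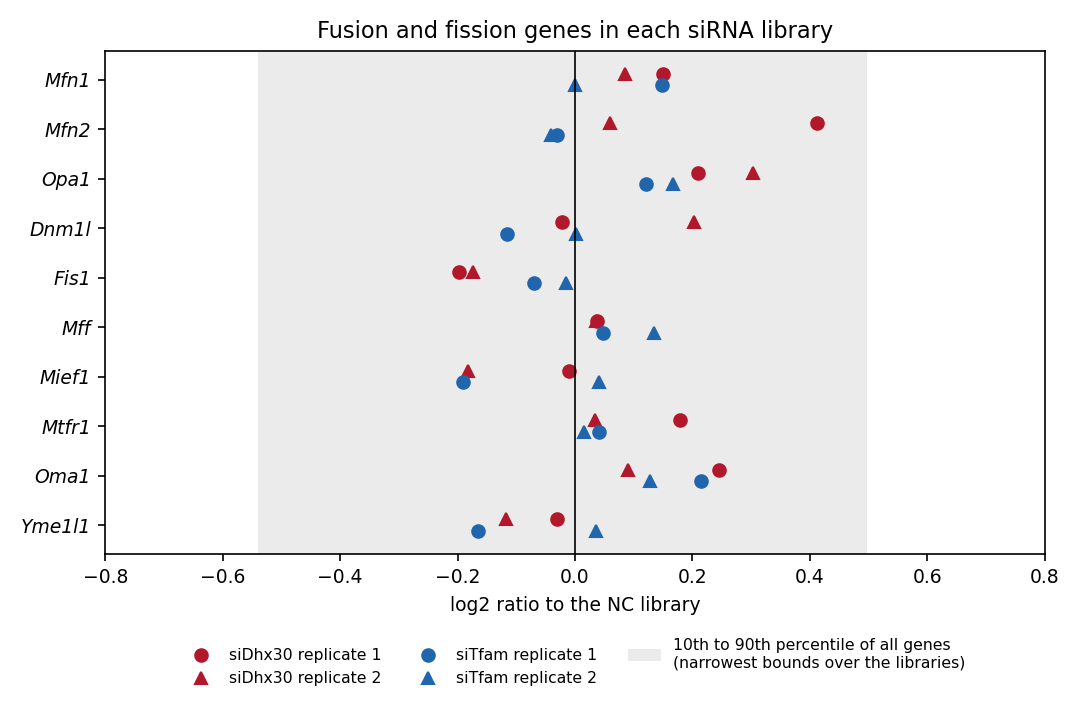
Log2 ratio to NC (x axis) of each fusion and fission gene (y axis) in the 2 siDhx30 libraries (red) and the 2 siTfam libraries (blue), circles for replicate 1 and triangles for replicate 2; the grey band spans the 10th to 90th percentile of all genes, using the narrowest bound of any library. Every point lies inside the band, from -0.20 for Fis1 to 0.41 for Mfn2.

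No member passed an adjusted p of 0.05 in any comparison. With limma, 0 of 10 passed for either siRNA against NC or for the siRNAs against each other, as did 0% of the 12088 genes each time. At an unadjusted limma p under 0.05 the count was again 0 of 10 in each, against 5.04%, 6.11% and 2.79% of all genes. The 95% interval included 0 for 10 of 10 members in each comparison. Over the members, the lowest lower bound in siDhx30 was 61.8% of NC (Mief1) and the highest upper bound 184% (Mfn2). In siTfam they were 62.4% (Mfn2) and 163% (Oma1). The median log2 ratio of the members was 0.098 in siDhx30 and -0.0044 in siTfam, beside -0.012 and -0.020 over all genes. The siDhx30 median was 0.048 without siDhx30 replicate 1 and 0.038 with trends on transcript length and GC content removed. The siTfam median was 0.025 without siTfam replicate 1.

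**Figure D2:**
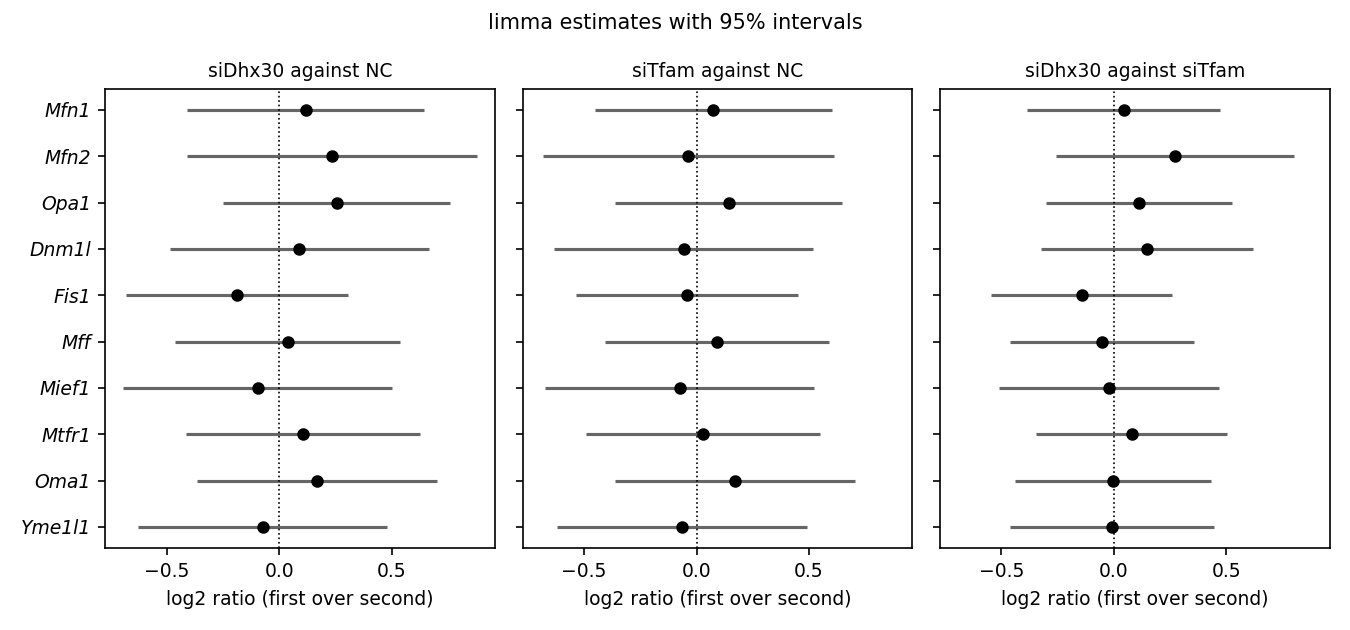
Limma estimates (points) and 95% intervals (lines) of the log2 ratio of each gene (y axis), first group over second, in 3 panels (each siRNA against NC, then siDhx30 against siTfam). Every interval crosses 0, and the highest estimates against NC are 0.26 for Opa1 and 0.24 for Mfn2 in siDhx30.

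The genes of the fusion GTPases had values above NC in both siDhx30 libraries, none of them past the test. So had Mff, Oma1 and Mtfr1 among the members, and so had 32.1% of all genes. Opa1 (ENSMUSG00000038084.16; GRCm38 chromosome 16, 29579334 to 29654884, plus strand), the inner membrane fusion GTPase, had ratios of 0.21 and 0.30 after siDhx30, and of 0.12 and 0.17 after siTfam. It was above NC in all 4 libraries and both siDhx30 values were above both siTfam values. Its siDhx30 mean was 0.26 (SE 0.18, n = 2), or 119% of NC with a 95% interval of 84.2% to 169%, and 19.2% of all genes had a higher estimate. The siTfam mean was 0.14 (SE 0.18, n = 2), or 110% of NC (77.9% to 157%). Limma adjusted p was 0.998 and 0.987.

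Mfn2 (ENSMUSG00000029020.13; chromosome 4, 147873599 to 147904704, minus strand), an outer membrane mitofusin that also sits at contacts with the endoplasmic reticulum, had ratios of 0.41 and 0.060 after siDhx30, and of -0.031 and -0.041 after siTfam. The siDhx30 mean of 0.24 (SE 0.23, n = 2, limma adjusted p = 0.998) came mostly from replicate 1, and without it the value was 0.060. The gap of 0.35 between the siDhx30 replicates was the widest of any member. Mfn1 (ENSMUSG00000027668.13; chromosome 3, 32529465 to 32579239, plus strand), the other mitofusin, had ratios of 0.15 and 0.086 after siDhx30, and of 0.15 and -0.0008 after siTfam, so its groups overlapped. The mean of the fusion GTPases was 0.26 and 0.15 in the siDhx30 libraries and 0.079 and 0.041 in the siTfam libraries. With length and GC trends removed, the siDhx30 values were 0.18 for Opa1, 0.075 for Mfn1 and 0.27 for Mfn2.

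Fission genes showed no common direction. Dnm1l (ENSMUSG00000022789.15; chromosome 16, 16312230 to 16358959, minus strand), which encodes the constricting GTPase DRP1, had ratios of -0.022 and 0.20 after siDhx30, and of -0.12 and 0.0008 after siTfam. Its replicates were on either side of NC in both groups. Of its 31-base words, 11.9% also occur in transcripts of other genes, most of them in Gm13719. How shared reads were counted is not given in the sources used here, and their effect on the ratio was not measured.

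The outer membrane proteins grouped here as DRP1 adaptors had values on both sides of NC. The part of Fis1 in receiving DRP1 in mammalian cells is less settled than that of Mff and Mief1. Fis1 (ENSMUSG00000019054.13; chromosome 5, 136953275 to 136966234, plus strand), a small tail-anchored protein, had ratios of -0.20 and -0.17 after siDhx30, and of -0.070 and -0.016 after siTfam. It was the one member below NC in all 4 libraries. Its siDhx30 mean was -0.19 (SE 0.18, n = 2), or 87.9% of NC with an interval of 62.4% to 124% (limma adjusted p = 0.998), and 27.2% of all genes had a lower estimate. Mff (ENSMUSG00000026150.14; chromosome 1, 82724890 to 82752394, plus strand), a main DRP1 receptor, had ratios of 0.038 and 0.036 after siDhx30, and of 0.048 and 0.13 after siTfam, all slightly above NC. With length and GC trends removed its siDhx30 value was -0.054. Mief1 (ENSMUSG00000022412.14; chromosome 15, 80234018 to 80253371, plus strand), which encodes the DRP1 receptor MiD51, had ratios of -0.010 and -0.18 after siDhx30, and of -0.19 and 0.040 after siTfam, so its groups overlapped.

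Mtfr1 (ENSMUSG00000027601.13; chromosome 3, 19187327 to 19220817, plus strand), a mitochondrial fission regulator, had ratios of 0.18 and 0.034 after siDhx30, and of 0.040 and 0.015 after siTfam. All 4 values were above NC, and the siTfam value was -0.037 with length and GC trends removed. Dnm1l and the 3 genes grouped here as its adaptors together had a mean of -0.048 and -0.030 in the siDhx30 libraries and -0.082 and 0.040 in the siTfam libraries.

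**Figure D3:**
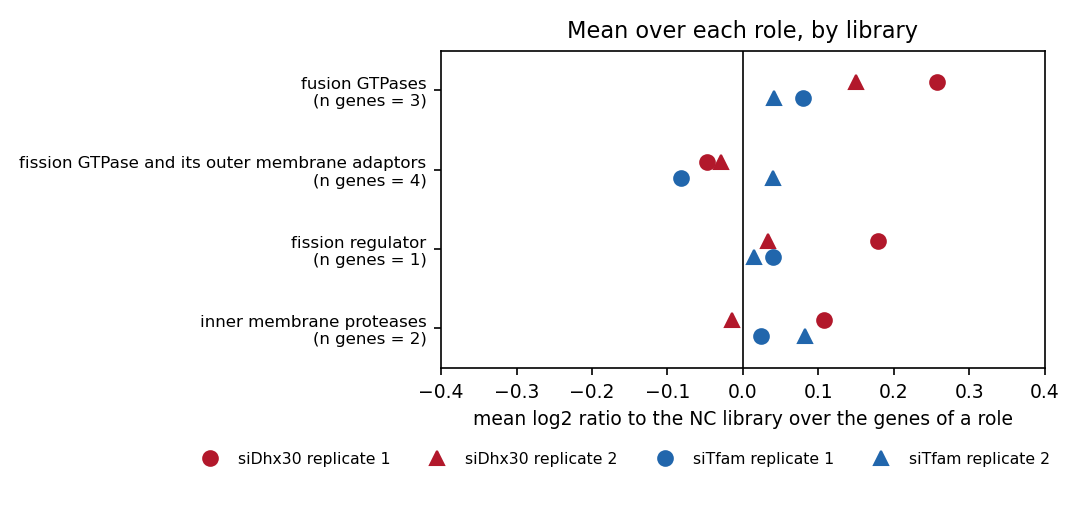
Mean log2 ratio to NC (x axis) over the genes of each role (y axis: 3 fusion GTPases, Dnm1l with 3 adaptors, Mtfr1 alone, 2 inner membrane proteases), one point per library, red for siDhx30, blue for siTfam, circles for replicate 1 and triangles for replicate 2. The fusion GTPases sit at 0.26 and 0.15 after siDhx30, and 0.079 and 0.041 after siTfam, and the means of the other roles run from -0.082 to 0.18; no test was made of these means.

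The genes of the OPA1-cutting proteases lay on opposite sides of NC in both siDhx30 libraries, again with neither past the test. Oma1 (ENSMUSG00000035069.3; chromosome 4, 103313812 to 103371868, plus strand), the stress-activated protease, had ratios of 0.24 and 0.090 after siDhx30, and of 0.21 and 0.13 after siTfam, above NC in every library. Its mean was 0.17 in both groups (SE 0.19, n = 2), 112% and 113% of NC, with limma adjusted p of 0.998 and 0.987. With length and GC trends removed the siTfam value was 0.098, beside 0.16 in siDhx30. Yme1l1 (ENSMUSG00000026775.9; chromosome 2, 23156369 to 23199260, plus strand), the ATP-dependent protease that cuts OPA1 under basal conditions, had ratios of -0.031 and -0.12 after siDhx30, and of -0.17 and 0.036 after siTfam.

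The signs of the members were also counted. Both siDhx30 libraries were above NC for 6 of 10 members (32.1% of all genes) and below it for 3 (34.9%). Both siTfam libraries were above NC for 4 of 10 (32% of all genes) and below it for 2 (34.4%). Opa1, Mff, Oma1 and Mtfr1 were above NC in all 4 libraries, 4 of 10 members against 20.1% of genes, and Fis1 alone was below in all 4, against 22.4%. Both siRNAs are set against the same NC library, so these are not separate counts for each siRNA.

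The direct comparison of siDhx30 with siTfam does not involve NC. The 10 differences ran from -0.14 for Fis1 to 0.27 for Mfn2, with a median of 0.020 beside -0.0015 over all genes. Mfn2 and Opa1 had both siDhx30 libraries above both siTfam libraries, 2 of 10 members against 14.7% of all genes. Fis1 and Mff had both below, again 2 of 10, against 14.3%. These shares are too close to the background to set the members apart. The Mfn2 difference was 0.27 (SE 0.19, 95% interval -0.26 to 0.80, limma adjusted p = 0.999) and was 0.096 without siDhx30 replicate 1. The Opa1 difference was 0.11 (SE 0.15, interval -0.30 to 0.52) and that of Fis1 -0.14 (SE 0.15, interval -0.55 to 0.26), both at a limma adjusted p of 0.999. With length and GC trends removed the Opa1 difference was 0.052 and that of Fis1 -0.014. Oma1 differed by -0.0032 (interval -0.44 to 0.43).

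How firmly a ratio can be assigned to a member differs with its locus. Of the 31-base words of the longest GENCODE transcript, none of those of Mfn2, Opa1, Fis1 or Oma1 occurs in another gene, and no member shares one with another member, Mfn1 and Mfn2 included. The share was 3.81% for Mief1, mostly with AC140267.1, 3.39% for Mtfr1, mostly with Gm12040, 1.18% for Yme1l1, 0.949% for Mfn1 and 0.0772% for Mff. Exons of Dnm1l overlap Gm49521 on the other strand over 243 bases, those of Mff overlap C430014B12Rik on the other strand over 195 bases, and those of Mief1 overlap AC140267.1 on the same strand over 213 bases. Whether counting used strand is not given in the sources used here, and reads in these stretches cannot be told apart.

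Genes that work around this machinery were taken from 7 lists of 85 distinct genes with all 4 ratios. With limma 0 of the 85 passed an adjusted p of 0.05 in each of the 3 comparisons. At an unadjusted p under 0.05 there were 2 for siDhx30 against NC (Immp2l and Bnip3), 2 for siTfam against NC (Immp2l and Apool) and 1 between the siRNAs (Fez1). These are 2.35%, 2.35% and 1.18% of the 85, below the 5.04%, 6.11% and 2.79% of all genes. Bnip3 in siDhx30 sat at the threshold, with a 95% interval of 100% to 268% of NC. Medians are given below for siDhx30 and siTfam against NC in that order, beside -0.012 and -0.020 over all genes. The counts of positive estimates that follow stand beside 48.1% and 47.3% of all genes, and nothing particular to a list is read from them.

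Other fission and fusion factors (11 of 14 listed genes) had medians of -0.058 and -0.11, with 4 and 5 of 11 positive. Mtfr1l, a relative of Mtfr1, was low and even across libraries, at -0.33 and -0.35 after siDhx30, and -0.35 and -0.29 after siTfam. Mtfp1, which promotes fission from the inner membrane, lay at -0.64, -0.049, 0.017 and -0.60 in the same order, so its replicates were far apart. Spire1, an actin nucleator that aids DRP1 at contact sites, had ratios of 0.023 and 0.33 after siDhx30, and of 0.59 and 0.51 after siTfam. Pld6, an outer membrane protein that favours fusion, lay at 0.080 and 0.46, and at -0.034 and 0.82.

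Modifiers of DRP1 and mitofusins (12 of 19) had medians of 0.093 and 0.033, with 10 and 7 of 12 positive. Usp30, an outer membrane deubiquitinase, had ratios of 0.35 and -0.16 after siDhx30, and of 0.21 and 0.38 after siTfam. Senp5, a SUMO protease, and Ppp3ca, the calcineurin subunit that acts on DRP1, were the lowest, with means over 4 libraries of -0.074 and -0.071.

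The list of OPA1 processing genes and prohibitins (12 of 13) had medians of -0.075 and 0.018, with 4 and 6 of 12 positive. This list is wider than its name, and some of its genes, such as Immp2l and Clpp, do not encode OPA1 proteases. Phb2, a prohibitin that scaffolds the inner membrane, had ratios of -0.42 and -0.13 after siDhx30, and of -0.44 and -0.18 after siTfam, and the matrix protease gene Clpp had the next lowest mean over 4 libraries, -0.25. Ghitm, an inner membrane protein needed for normal cristae, had a mean of 0.31. Immp2l, a signal peptidase subunit of the inner membrane, stood far from the rest at 1.99 and 2.13 after siDhx30, and 1.98 and 2.21 after siTfam. Its ratios were 416% and 427% of NC (limma adjusted p = 0.478 and 0.378), and the siRNAs differed by -0.039 (95% interval -0.51 to 0.44), so all 4 siRNA libraries stood apart from the single NC library by about the same amount.

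MICOS and cristae-shaping genes (16 of 18) had medians of 0.064 and -0.0013, with 10 and 7 of 16 positive. Apool, a cardiolipin-binding MICOS subunit, had ratios of 0.47 and 0.37 after siDhx30, and of 0.70 and 0.80 after siTfam (mean 0.75, SE 0.19, limma adjusted p = 0.676). Atp5e, which is in the list but encodes the epsilon subunit of ATP synthase and not a cristae-shaping one, lay at 0.87 and 0.21, and 1.08 and 0.75. Chchd10, an intermembrane space protein, had the lowest mean over 4 libraries, -0.40, and its siDhx30 values of -0.93 and -0.28 were far apart. Mtx3, a metaxin, had ratios of -0.071 and -0.028 after siDhx30, and of -0.28 and -0.86 after siTfam.

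**Figure D4:**
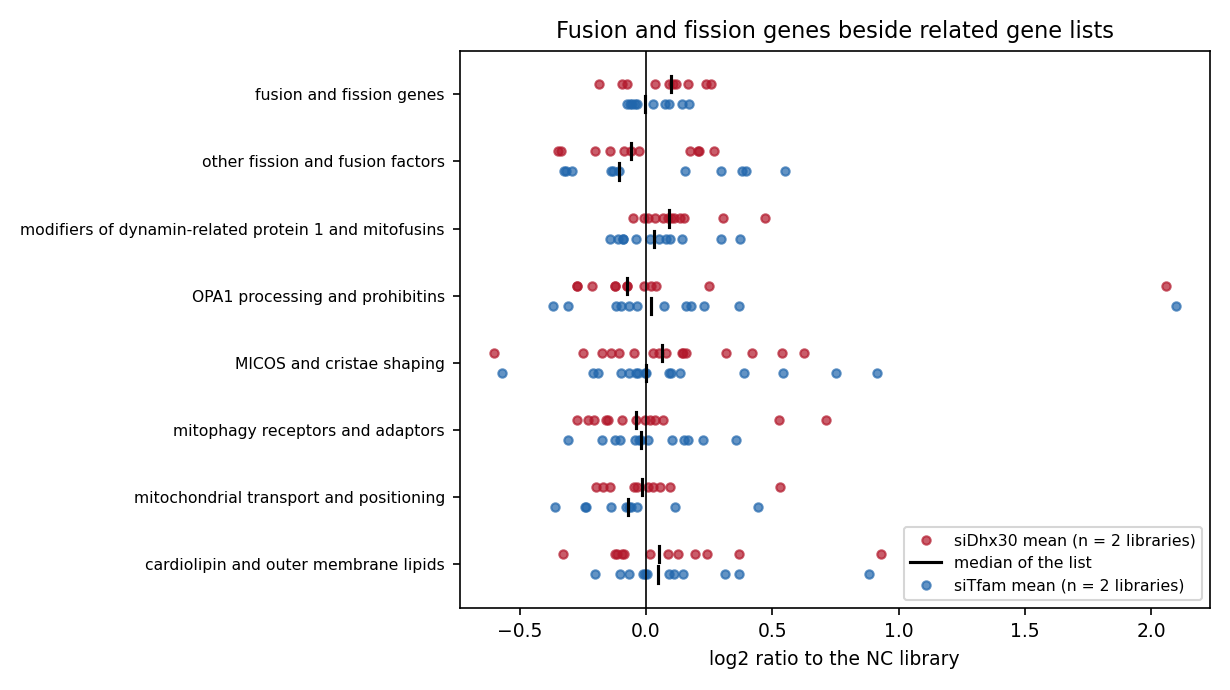
Mean log2 ratio to NC (x axis) of every measured gene of the fusion and fission set and of 7 related lists (y axis), red for siDhx30 and blue for siTfam, each the mean of 2 libraries, with a black bar at the list median. The list medians lie between -0.11 and 0.098, and the pair of points near 2 is Immp2l.

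Mitophagy receptors and adaptors (13 of 14) had medians of -0.041 and -0.018, with 5 and 6 of 13 positive. Bnip3, a mitophagy receptor that is also a hypoxia target, had ratios of 0.55 and 0.87 after siDhx30, and of 0.50 and 0.22 after siTfam, and its relative Bnip3l at 0.088 and 0.96, and 0.14 and 0.31. Both were above NC in every library, but the Bnip3l value in siDhx30 replicate 2 was far from the other 3. Phb2 again and Ulk1, an autophagy kinase (mean -0.17), were the lowest.

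Transport and positioning genes (10 of 12) had medians of -0.014 and -0.073, with 5 and 2 of 10 positive. Fez1, a kinesin adaptor, had ratios of 0.031 and -0.13 after siDhx30, and of 0.37 and 0.52 after siTfam, a difference of -0.49 (SE 0.16, limma adjusted p = 0.999). Armcx1, a mitochondrial trafficking protein, had a mean of 0.32 over 4 libraries, and Mgarp and Armcx2 had means of -0.22 and -0.20. Cardiolipin and outer membrane lipid genes (12 of 15) had medians of 0.050 and 0.047, with 7 of 12 positive in both. Lclat1, a cardiolipin-remodelling acyltransferase, had ratios of 1.26 and 0.60 after siDhx30, and of 1.34 and 0.43 after siTfam, high in both libraries numbered 1. Ptpmt1, a phosphatase of cardiolipin synthesis, had a mean of 0.34, and Prelid1, a phosphatidic acid carrier, and Pla2g6, a phospholipase, had means of -0.26 and -0.11.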

How the data were processed

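Per the file headers, the deposited table holds log2 fold values, with 1 column per siRNA library and none for NC. Per the submitters' processing notes, bcl2fastq, HISAT2, featureCounts and DESeq2 were used with GRCm38; no annotation, filter or strand setting is given in the sources used here. Of 12930 upper-case names, 12660 matched GENCODE M21 symbols. Each sign was reversed, which gives siRNA over NC if the reading of the missing values given above is right. Genes with 4 values (12088) were fitted with limma 3.58.1 in R 4.3.3, with 1 coefficient per group, NC as a column of zeros assumed to vary like the other libraries, 2 residual degrees of freedom, robust moderation and Benjamini-Hochberg adjustment over all genes. No set test was made.

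The members, lists and tests were chosen with earlier results of these data known, and the motifs after the promoter windows had been seen. Named genes were all members, Dhx30 and Tfam, and from each list the 2 highest and 2 lowest by mean ratio over the 4 libraries. Genes named for an unadjusted p fall under the same rule. A list gene that this rule names is not reported here. Alternatives left out each siRNA library, used robust=FALSE, kept genes with missing values, centred libraries, removed quadratic length and GC trends over 9257 protein-coding genes, used only the groups compared, or blocked on the replicate number. Tables were made with pandas 2.3.3 and plots with matplotlib 3.10.9, in Python 3.11.15.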

Additional observations from a re-analysis of the deposited data

How the results depend on the processing

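The count of members past an adjusted limma p of 0.05 was 0 in all 3 comparisons under every alternative run, and so was the count over all genes. Only centring, removing the trends, and leaving out a library of the comparison itself can move a ratio; of 140 member values under these, 124 kept their sign. The smallest adjusted p of a member under any alternative was 0.886. With length and GC trends removed, the siDhx30 median of the members was 0.038, Mff in siDhx30 lay at -0.054, Mfn2 and Mtfr1 in siTfam at 0.021 and -0.037, and Oma1 in siDhx30 against siTfam at 0.063; another 16 of the 30 member values kept their sign and moved by over 1.5 times, among them Oma1 in siTfam (0.098). The cause was not tested. Leaving out 1 library of the comparison at a time, the member median was 0.048 or 0.094 in siDhx30, beside 0.098 with all libraries. In siTfam it was 0.025 or 0.0045, beside -0.0044 with all libraries. Between the siRNAs it ran from -0.024 to 0.079. Values that crossed 0 in this way were Dnm1l in siDhx30 (-0.022 to 0.20); Mfn1 (-0.0008 to 0.15), Dnm1l (-0.12 to 0.0008), Mief1 (-0.19 to 0.040) and Yme1l1 (-0.17 to 0.036) in siTfam; and Mfn1 (-0.031 to 0.12), Mief1 (-0.14 to 0.095), Oma1 (-0.081 to 0.074) and Yme1l1 (-0.11 to 0.091) between the siRNAs. With the replicate block, which only siDhx30 against siTfam allows because NC carries no number, the member median was 0.020 and 0 members passed; deviations of same-numbered libraries correlated at 0.25 over genes in 1 pair of groups, too few to show that the numbers pair the libraries. Depth is unknown, so no limit from depth can be given. Even Immp2l, at 416% of NC in siDhx30 and 427% in siTfam, did not pass the adjusted threshold. The counts of 0 therefore show little about how stable the members are.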
